A study of Mus musculus with 4 samples.

Results

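Ribosome footprints on 9 genes of the exon junction complex (EJC) and of nonsense-mediated decay (NMD) were followed in E14 mouse embryonic stem cells: Magoh, Magohb, Rbm8a, Casc3, Upf1, Upf2, Upf3b, Smg1 and Smg5. They were taken by symbol from a table of 25170 genes, each symbol had exactly 1 row, and all 9 passed the filter on low values. The genes were chosen by values of these same libraries, their FPKM under DMSO and PD, so their differences between treatments are described and no test is drawn from them. The cells were wild-type E14, a line from the inner cell mass, kept on gelatin in serum with leukemia inhibitory factor. The control group received DMSO, the solvent, and the treated group received 1 µM PD, each for 3 passages and each with 2 libraries. PD is the only name the labels give for the compound, and the series concerns the kinase Mek. Nothing in the labels ties the libraries to separate cultures, so the spread between them may be technical.

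Values are FPKM, footprint fragments scaled by transcript length and by library size. A footprint is a piece of mRNA that a ribosome shielded from nuclease, so FPKM follows the amount of an mRNA as well as its load of ribosomes, and these data hold no measure of mRNA alone. Since whole cultures were lysed, fewer cells with a transcript and less of it per cell cannot be told apart either. Depth was read from the steps between low FPKM values. Set against DMSO replicate 1, the other DMSO library had 1.42 times the depth, whereas PD replicate 1 had 0.464 times and PD replicate 2 had 0.201 times. The PD libraries were thus the shallower ones. All 10 embryonic stem cell markers of the fixed list, Pou5f1, Sox2 and Nanog among them, averaged 1 FPKM or more, with a summed level of 2467 to 4142 FPKM per library, of which Dppa5a alone gave 1414 to 3203. The 7 feeder or fibroblast markers summed to 2.91 to 6.60 FPKM, with Lum at 0 in every library. Of these 7, 2 averaged 1 FPKM or more, Thy1 (1.13 to 2.10 per library) and Acta2 (0.772 to 3.19). The 5 endoderm markers summed to 0.242 to 1.5 FPKM, with Gata6 at 0 throughout, and the 4 trophectoderm markers to at most 0.574, with Cdx2 and Krt7 at 0 throughout. The 4 neural markers summed to 31.3 to 59.5 FPKM, of which the tubulin gene Tubb3 alone gave 29.96 to 56.7 and Pax6 0.142 to 2.78.

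The EJC is laid down on an mRNA just upstream of each splice junction and travels with it to the cytoplasm. Its core is formed by the helicase Eif4a3, the heterodimer of a Mago protein with Rbm8a (Y14), and Casc3 (also called MLN51 or Barentsz). A ribosome normally strips the complexes off as it passes. Where translation stops ahead of a remaining EJC, Upf3b and Upf2 link that complex to the helicase Upf1, the kinase Smg1 phosphorylates Upf1, and Smg5 helps to recruit the enzymes that degrade the mRNA. In embryonic stem cells NMD is known for its part in the choice between self-renewal and differentiation.

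The levels of the 9 genes spanned more than 2 orders of magnitude per length, and Magoh stood far above the rest. In DMSO the means ran from Magoh at 517 FPKM through Upf1 (33.4), Rbm8a (31.8), Magohb (15.7), Smg5 (8.03), Casc3 (8.0), Upf3b (6.70) and Upf2 (6.22) to Smg1 at 2.50. The DMSO libraries of Smg5, Casc3, Upf3b and Upf2 overlapped from each gene to the next, so their order there is not resolved, while the other neighbours in this order had DMSO libraries that did not overlap. In PD the means ran from Magoh at 672 FPKM through Upf1 (25.9), Rbm8a (24.2), Upf2 (8.0), Smg5 (7.24), Casc3 (6.5), Upf3b (4.46) and Magohb (4.37) to Smg1 at 2.83. There the libraries overlapped between Upf1 and Rbm8a, from Upf2 through Smg5 to Casc3, and between Upf3b and Magohb. Magohb and Upf2 exchanged places between the orders, Magohb standing next after Rbm8a in DMSO and next before Smg1 in PD. By mean over the 4 libraries Magoh ranked at place 44 of the 8897 protein-coding genes tested, Upf1 at 1579, Rbm8a at 1636, Magohb at 3431 and Smg1 at 6645.

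**Figure D1:**
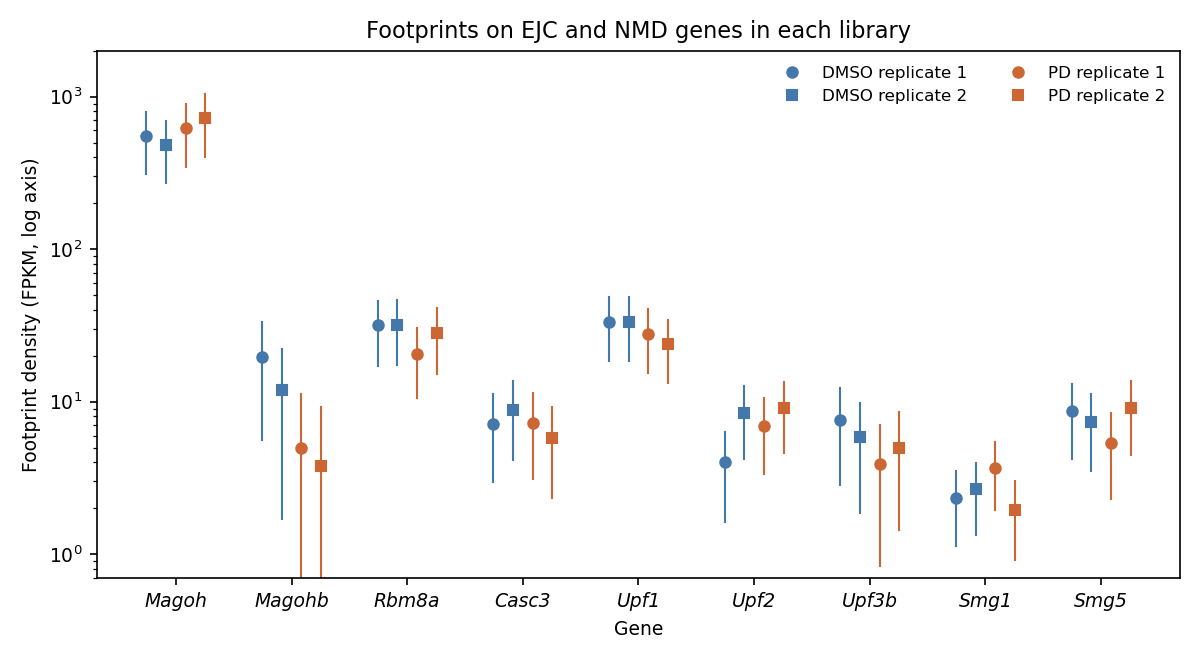
Footprint density of the 9 genes in each library, in FPKM on a log axis. Points are libraries, blue for DMSO and orange for PD, and lines are the interval bounds deposited with each value (the lower bound of Magohb is 0 in both PD libraries and runs off the axis). Magoh lies above all other genes in every library, and the PD points of Magohb lie below its DMSO points.

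Magoh and Magohb encode the Mago subunit in nearly identical forms, and the footprints of these paralogues lay on opposite sides of the treatment. Magoh (mm10, chromosome 4, 107879755 to 107887424) stood at 549.8 and 484.5 FPKM under DMSO and at 619.8 and 723.6 under PD. Both PD libraries lay above both DMSO libraries, with means of 517 ± 46.2 and 672 ± 73.3 FPKM (SD, n = 2), a ratio of 1.3. Its log2 difference, PD minus DMSO on the log2(FPKM + 1) scale, was 0.38 with an SE of 0.27. With quantile normalization this value was 0.07. Without it, 59.2% of the 8897 protein-coding genes tested had a smaller difference in size than Magoh.

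Magohb (chromosome 6, 131284389 to 131293244) stood at 19.5 and 11.9 FPKM under DMSO and at 4.95 and 3.8 under PD. Both PD libraries lay below both DMSO libraries, and the means were 15.7 ± 5.39 and 4.37 ± 0.813 FPKM (SD, n = 2), 3.59 times as high in DMSO. The log2 difference was -1.61 with an SE of 0.35, and it ran from -1.94 to -1.27 when each library was left out in turn. Of the 8897 protein-coding genes tested, 98.6% had a smaller difference in size. As the genes were chosen on such values, this is a description.

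Few reads stand behind the PD values of Magohb. Whole reads recovered from the FPKM steps numbered 51 and 44 under DMSO, against 6 (replicate 1) and 2 (replicate 2) under PD. At the mean DMSO level the depth of the PD libraries would have given 19.0 and 8.26 reads. Turned into FPKM, the exact Poisson 95% intervals for these reads were 14.5 to 25.7 and 8.63 to 16.0 under DMSO. Under PD they were 1.82 to 10.8 (replicate 1) and 0.460 to 13.7 (replicate 2). The interval of PD replicate 2 overlaps that of DMSO replicate 2, and that of PD replicate 1 overlaps it as well, whereas both lie below that of DMSO replicate 1. Counting error is all that such intervals cover, as the labels name no molecular identifiers. The shallower libraries are the PD libraries, and the part of depth in the difference was not tested.

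Magoh has ample reads, with 1249 and 1559 under DMSO and 653 and 331 under PD, so the share of the pair that falls to Magohb is limited by the reads of Magohb. Per length, Magohb made up 3.43% and 2.39% of the summed FPKM of both genes under DMSO and 0.792% and 0.522% under PD. The means were 2.91% ± 0.730 and 0.657% ± 0.191 (SD, n = 2). In reads the shares were 3.92% of 1300 (exact Clopper-Pearson 95% interval 2.93% to 5.13%) and 2.74% of 1603 (2.0% to 3.67%) in DMSO. In PD they were 0.910% of 659 (0.335% to 1.97%) and 0.601% of 333 (0.0728% to 2.15%). Magoh stood at 28.2 and 40.8 times the FPKM of Magohb in DMSO and at 125 and 190.5 times in PD. The sources used here do not give how reads matching both paralogues were assigned, so the split between them is uncertain.

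**Figure D2:**
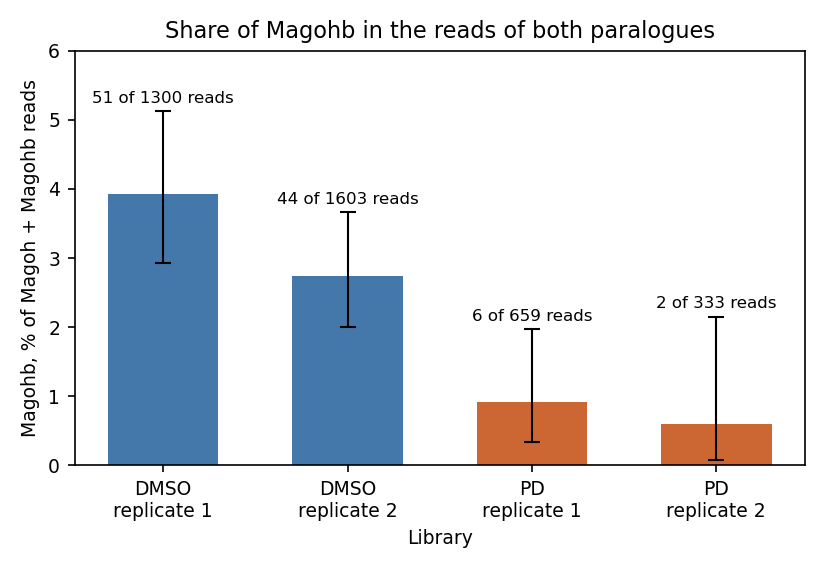
Share of Magohb in the reads recovered for Magoh and Magohb together, in percent, for each library. Bars are single libraries, blue for DMSO and orange for PD, and lines are exact binomial 95% intervals, which cover counting error only. The DMSO libraries stand at 3.92% and 2.74% and the PD libraries at 0.910% and 0.601%.

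Magoh and Magohb lie on different chromosomes, and the 250 bases before their starts are shown as a description. The part of these sequences in the footprint values was not tested. The sequences are those of RefSeq (GRCm38.p6), which held 7 of the 9 genes, without Rbm8a and Casc3. They run 5′ to 3′ in the direction of transcription, the plus strand for Magoh (chr4:107879505-107879754) and the minus strand for Magohb (chr6:131293245-131293494), with matches to the searched motifs in capitals.
Magoh: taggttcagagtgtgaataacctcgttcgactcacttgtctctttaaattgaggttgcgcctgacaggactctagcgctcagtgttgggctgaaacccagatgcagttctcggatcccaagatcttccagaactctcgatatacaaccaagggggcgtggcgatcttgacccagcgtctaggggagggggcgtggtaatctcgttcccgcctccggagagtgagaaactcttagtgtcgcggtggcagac
Magohb: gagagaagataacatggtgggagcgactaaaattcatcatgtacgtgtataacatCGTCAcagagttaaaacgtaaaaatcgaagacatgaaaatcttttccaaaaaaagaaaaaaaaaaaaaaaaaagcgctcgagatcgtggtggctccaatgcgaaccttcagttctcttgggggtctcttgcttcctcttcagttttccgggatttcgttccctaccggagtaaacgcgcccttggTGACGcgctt
G and C made up 54.0% of the Magoh window and 42.8% of the Magohb window, beside a median of 52.4% over 32851 promoters. On both strands, the ETS core CCGGAAGT and the AP-1 motif TGANTCA were searched, names of factors that ERK signalling is known to act on, and so was the cAMP response half-site TGACG, whose first 3 letters are also those of the AP-1 motif. In windows of the same length, 2.88%, 6.75% and 17.8% of all promoters held them. None of the 7 windows held the ETS core or the AP-1 motif. TGACG was found at 2 places in the Magohb window, at 1 in that of Upf3b and at none in that of Magoh. These are matches of letters and were not tested as sites.

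Rbm8a, the RNA-binding partner of the Mago proteins, lay on the other side from Magoh. Rbm8a (chromosome 3, 96629928 to 96633791) stood at 31.6 and 32.0 FPKM under DMSO and at 20.5 and 28.02 under PD. The reads behind these were 353 and 506 for DMSO, then 106 and 63 for PD. Both PD libraries lay below both DMSO libraries, which differed by a factor of 1.01, while the PD libraries differed by a factor of 1.37. The log2 difference was -0.39 with an SE of 0.28. It was -0.18 without PD replicate 1 and -0.61 without PD replicate 2, so that its size depends on which PD library is used.

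The size of the excess of Magoh over Rbm8a differed between FPKM and reads. Magoh stood at 17.4 and 15.1 times the FPKM of Rbm8a under DMSO and at 30.3 and 25.8 times under PD. In reads, which are not scaled by length, the ratios were 3.54 and 3.08 in DMSO and 6.16 and 5.25 in PD. A single recovered read in DMSO replicate 1 was worth 0.440 FPKM on Magoh and 0.0896 on Rbm8a. The transcript lengths used for scaling are not given here, and the true reads may be a multiple of those recovered. The sources used here do not give whether footprints were restricted to coding sequence, and the part of this in the ratios was not tested.

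Casc3, the remaining core subunit listed, overlapped between the groups. Casc3 stood at 7.13 and 8.87 FPKM under DMSO and at 7.24 and 5.76 under PD, and its log2 difference was -0.26 ± 0.28 (SE). The value was -0.12 without PD replicate 2 and -0.41 without PD replicate 1.

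Upf1, the central helicase of NMD, was the most even of the 9 between the DMSO libraries and lay lower in PD. Upf1 stood at 33.5 and 33.3 FPKM under DMSO and at 27.96 and 23.9 under PD. Both PD libraries lay below both DMSO libraries, with means of 33.4 ± 0.153 and 25.9 ± 2.89 FPKM (SD, n = 2), 1.29 times as high in DMSO. The log2 difference was -0.36 with an SE of 0.24, and it ran from -0.47 to -0.25 when each library was left out.

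Upf1 and Casc3 are also the members whose loci in the table join neighbouring genes. The locus of Upf1 runs on chromosome 8 from 70315775 to 70353279 and is shared with Cers1 and Gdf1. Upf1 lies on the minus strand, and RefSeq puts its lower coordinate, the 3′ end, at 70331493. The locus of Casc3 runs on chromosome 11 from 98795516 to 98833807 and is shared with Msl1 and Gm12359, whereas RefSeq starts Casc3 at 98809808. No whole reads could be recovered for Upf1 or Casc3, against whole reads for all 7 of the other genes. The part that reads of the neighbours have in these 2 values was not tested.

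The adaptors that join Upf1 to the EJC shared no direction. Upf2 (chromosome 2, 5951469 to 6056703), the bridge between Upf1 and Upf3b, stood at 4.0 and 8.44 FPKM under DMSO and at 6.93 and 9.06 under PD. The DMSO libraries were 2.11 times apart, more than for any other member, on 92 and 275 reads, and the groups overlapped. The log2 difference of Upf2 was 0.38 with an SE of 0.41. Without DMSO replicate 1 it turned to -0.08, and without DMSO replicate 2 it was 0.84, so it carries no direction.

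Upf3b (chromosome X, 37091678 to 37110322), which binds the EJC directly, stood at 7.56 and 5.84 FPKM under DMSO and at 3.91 and 5.01 under PD. The reads were 75 and 82 in DMSO and 18 and 10 in PD. Both PD libraries lay below both DMSO libraries, and the log2 difference was -0.49 with an SE of 0.29, from -0.66 to -0.33 with each library left out. Its paralogue Upf3a stood at 11.7 and 9.28 FPKM under DMSO and at 5.82 and 6.26 under PD, for which limma gave -0.70 ± 0.27 (log2, SE). In the limma fit across all 9741 genes, adjusted by Benjamini-Hochberg, Upf3a did not pass (adjusted p = 0.837). Upf3b stood at 0.646 and 0.629 times the FPKM of Upf3a in DMSO and at 0.672 and 0.80 times in PD. Upf3a thus had the higher FPKM in each of the 4 libraries, but on fewer reads than Upf3b in each. The reads of Upf3a were 65 and 73 in DMSO and 15 and 7 in PD. In DMSO replicate 1 a recovered read was worth 0.180 FPKM on Upf3a and 0.101 on Upf3b. Reads are not scaled by length, and the true reads may be a multiple of those recovered, so reads do not rank the paralogues by level. The higher place of Upf3a rests on the scaling of FPKM.

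Smg1 and Smg5, which act on Upf1, overlapped between groups. Smg1 (chromosome 7, 118131312 to 118243637), the kinase, stood at 2.34 and 2.66 FPKM under DMSO and at 3.70 and 1.96 under PD, the last from 14 reads. PD replicate 1 was the highest and PD replicate 2 the lowest of the 4. Smg5 (chromosome 3, 88336260 to 88362337), an adaptor that binds phosphorylated Upf1, stood at 8.65 and 7.40 FPKM under DMSO and at 5.38 and 9.10 under PD, where the order of the PD libraries was the reverse of that for Smg1. The log2 differences were 0.09 for Smg1 (SE 0.37) and -0.17 for Smg5 (SE 0.34). Without PD replicate 1 both took the other sign, at -0.24 for Smg1 and 0.17 for Smg5.

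Of the 9 genes, 4 lay lower in each PD library than in either DMSO library (Magohb, Rbm8a, Upf1 and Upf3b), 1 lay higher (Magoh) and 4 overlapped. Over all 9741 genes tested, 18.3% lay lower in this way, 17.5% higher and 35.8% in either direction. Over the protein-coding genes these shares were 18.9%, 17.1% and 36.0%. The median log2 difference was -0.26 over the 9 genes and -0.02 over all genes tested. 0 of the 9 were called by limma at an adjusted p under 0.05, where 0.257% of all genes (0.0308% higher and 0.226% lower in PD) and 0% of the protein-coding genes were. By the same limma fit, 1 of the 9 (Magohb) and 561 of all 9741 genes had an unadjusted p under 0.05. Voom on recovered reads also called 0 genes. Nothing is read from these counts, since the genes were chosen with the values known. With 2 libraries against 2, an exact two-sided permutation test of a single gene could not give a p below 0.333.

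**Figure D3:**
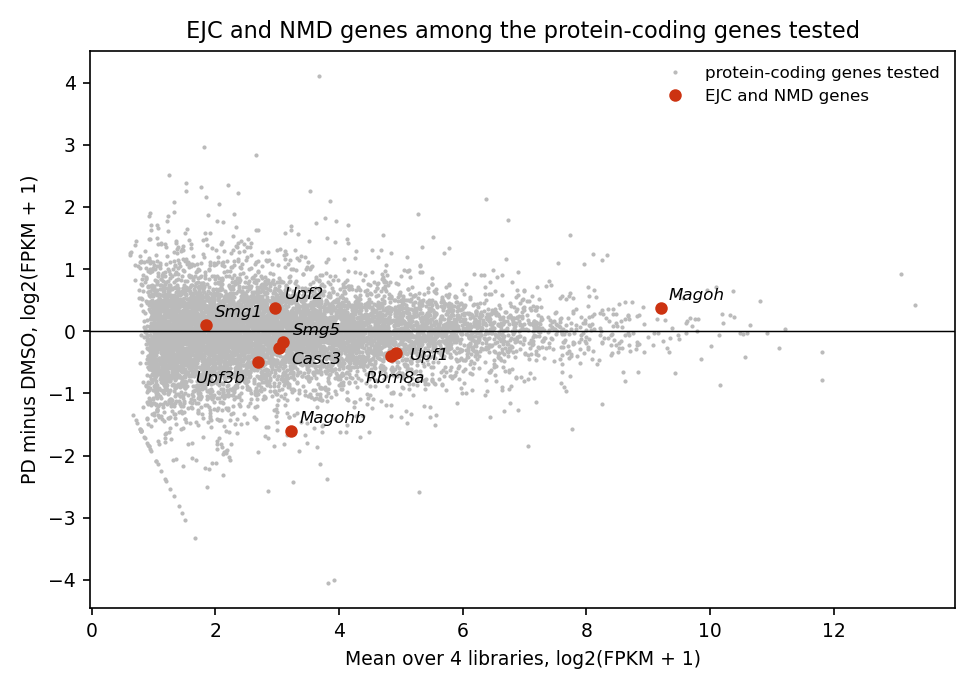
Difference between PD and DMSO against mean level for the 8897 protein-coding genes tested (grey) and the 9 EJC and NMD genes (red). The horizontal axis is the mean and the vertical axis the difference of log2(FPKM + 1). Magohb stands at -1.61, at the lower edge of genes of its level, and the other 8 lie between -0.49 for Upf3b and 0.38 for Upf2 and Magoh.

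The interval bounds deposited beside each FPKM were about as wide in the shallowest library as in the deepest for genes at a like level. For Smg1 the upper bound lay 49.9% above the value in DMSO replicate 2, with 134 reads, and 53.2% above it in PD replicate 2, with 14 reads. For Rbm8a it lay 45.7% above in DMSO replicate 2 and 45.8% above in PD replicate 2, with 506 and 63 reads. For Magohb the bounds were 5.62 to 33.4 and 1.70 to 22.1 FPKM in DMSO and 0 to 11.2 and 0 to 9.21 in PD, and these overlapped between the groups. The median over protein-coding genes of 5 to 10 FPKM was 61.5% to 63.0% in each of the 4 libraries. In this range of levels the bounds were thus no wider in the shallower PD libraries.

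By the distance between patterns, the protein-coding genes nearest to Magohb were Jade3, Ginm1 and Rhebl1. The distance was taken over the 4 libraries on log2(FPKM + 1) after removal of the mean of each gene, among the 5025 genes that averaged 5 FPKM or more. It was 0.159 for Jade3, 0.201 for Ginm1 and 0.220 for Rhebl1, against a median of 1.74. These were picked as the smallest distances, so their standing below the median follows from the choice. The PD values of Magohb rest on 6 and 2 reads, so the order among the 3 carries no meaning. Jade3, a scaffold of a histone acetyltransferase complex, stood at 42.8 and 29.5 FPKM under DMSO and at 12.1 and 8.74 under PD. Ginm1 stood at 12.0 and 7.20 FPKM under DMSO and at 3.43 and 2.37 under PD. Rhebl1, a small GTPase related to Rheb, stood at 24.98 and 18.5 FPKM under DMSO and at 7.37 and 6.36 under PD. With 4 libraries, likeness of this kind rests mainly on the treatment difference and on the order of the replicates.

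The other genes of the pathway, listed by role, did not pass in either direction. Of 25 listed, 24 were tested, 0 passed higher and 0 lower (limma, adjusted p from 0.837 to 0.999), and 0 had an unadjusted p under 0.05. By the same fit 0.257% of all genes tested passed (0.0308% higher and 0.226% lower in PD). Of the protein-coding genes, to which all 24 belong, 0% passed, so nothing about the pathway is read from the 0. In 4 of the 24 both PD libraries were the higher ones, in 5 the lower ones and in 15 the groups overlapped. Over all genes tested 17.5% lay higher and 18.3% lower, so these counts are near the background. The median log2 difference of the 24 was -0.12, and it was 0.06 without PD replicate 2. The 9 tested genes of the EJC and its periphery had a median of -0.37, with 8 of them at a value under 0, as were 5069 of all 9741 genes tested, but this median was 0.02 without PD replicate 2. The 15 other NMD genes had a median of -0.02. Sap18, an EJC-associated protein, was the gene not tested, at under 1 FPKM on average, and its row shares a locus with Sap18b.

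Eif4a3, the helicase that clamps the EJC onto RNA, differed more between replicates than between the groups. It stood at 91.3 and 42.3 FPKM under DMSO and at 85.3 and 18.7 under PD, on 533, 350, 231 and 22 reads. The PD libraries differed by a factor of 4.56 and the DMSO libraries by 2.16, against 1.28 between the means of the groups. Eif4a3l1, a near-identical copy, has a row of its own, and how reads were split between them is not known here. The log2 difference of Eif4a3 was -0.62 ± 0.84 (SE, limma adjusted p = 0.910). Cwc22, the splicing factor that brings Eif4a3 to the spliceosome, stood at 2.66 and 5.48 FPKM under DMSO and at 4.41 and 0.416 under PD, again with a wide spread (limma adjusted p = 0.866).

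Smg6, the endonuclease of NMD, had means that differed between the groups by less than the SD of the PD libraries. The row of Smg6 shares a locus with Srr, Tsr1 and Snord91a. The means of Smg6 were 3.79 ± 0.0237 FPKM under DMSO and 3.84 ± 1.32 under PD (SD, n = 2). Its log2 difference was -0.01 ± 0.33 (SE, limma adjusted p = 0.996). Ruvbl1, an ATPase that assists the assembly of the Smg1 kinase complex among many other tasks, had the largest value of the list. It stood at 37.2 and 20.1 FPKM under DMSO and at 61.6 and 47.5 under PD, with no overlap, and its log2 difference was 0.96 ± 0.39 (SE, limma adjusted p = 0.837).

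**Figure D4:**
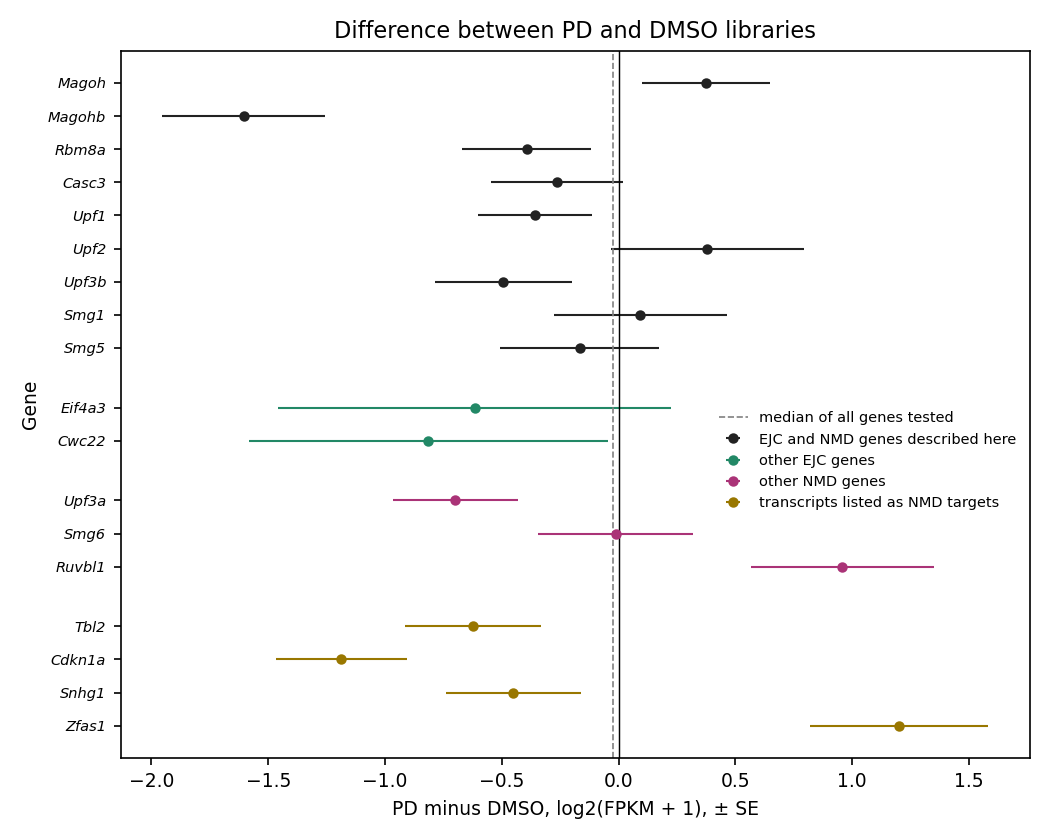
Difference between PD and DMSO on the log2(FPKM + 1) scale for the 9 genes (black) and for the genes named from the lists of other EJC genes (green), other NMD genes (purple) and transcripts listed as NMD targets (yellow). Points are limma estimates, lines are ± 1 SE, and the dashed line is the median of all genes tested, at -0.02. Magohb has the lowest value shown, at -1.61, and Zfas1 the highest, at 1.20.

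No transcript of the list widely described as degraded by NMD passed. Of 13 listed, 12 were tested, 0 passed higher and 0 lower (limma, adjusted p from 0.766 to 0.984), and 2 had an unadjusted p under 0.05, as did 561 of all 9741 genes. By the same fit 0.257% of all genes and 0% of the protein-coding genes passed, so nothing about NMD targets is read from the 0. In 1 of the 12 both PD libraries were the higher ones, in 5 the lower ones and in 6 the groups overlapped. Over all genes tested 17.5% lay higher and 18.3% lower. The median log2 difference was -0.12, and it was 0.10 without PD replicate 2 and 0.04 with voom on recovered reads. Atf3 was not tested, with a mean under 1 FPKM. Zfas1, a noncoding snoRNA host, stood at 105.9 and 101.4 FPKM under DMSO and at 176.2 and 325.8 under PD (limma adjusted p = 0.816). Its row shares a locus with Znfx1 and Snord12, and the part of their reads was not tested. Cdkn1a, the cell cycle inhibitor p21, stood at 10.1 and 12.1 FPKM under DMSO and at 4.90 and 3.76 under PD, from 40, 68, 9 and 3 reads (limma adjusted p = 0.766). Tbl2 stood at 4.03 and 3.69 FPKM under DMSO and at 2.32 and 2.0 under PD, and the snoRNA host Snhg1 stood at 248.4 and 186.5 FPKM under DMSO and at 171.2 and 144.5 under PD, with limma adjusted p of 0.837 for both. The row of Snhg1 shares a locus with Snord22.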

How the data were processed

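The values are FPKM per gene and library with a lower and an upper bound, as deposited by the authors in 1 table laid out as Cufflinks writes it, per the file headers. Tools credited in the submitters' processing notes are Bowtie2, Cufflinks, FastQC, STAR and Trimmomatic, with build mm10; versions are not given in the sources used here. Table starts were raised by 1. 1 gene with a failed status was left out. Gene types came from RefSeq (GRCm38.p6), where 24976 of 25170 symbols were found. The 9741 genes averaging 1 FPKM or more were put on the log2(FPKM + 1) scale and tested by limma 3.58.1 under R 4.3.3 (variance trend, group as the only term, 2 residual degrees of freedom), with Benjamini-Hochberg adjustment over all genes and a threshold of 0.05. Fold changes on this scale understate low genes. Of 10161 genes above 0 throughout, 73.9% gave whole reads (the smallest match within 0.02 reads), beside 2.04% with wrong steps; the true reads may be a multiple.

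On simulated data with the spread of the 9741 genes, limma recovered 49.5% of 200 genes changed by 4 log2 units, and 100% with a spread of 0.1. Read recovery, tested on 3531 genes with known reads, returned the true reads for 93.6%. Named were the 9 genes, Eif4a3, Upf3a, Smg6, the 4 largest differences of each further list and the 3 genes nearest to Magohb; 1 further gene of the rule is not reported here. Sap18 and Atf3, which were not tested, were named after their values were seen. The genes and lists were chosen with earlier results of these data known. Protein and transcript sequences were not used here, so the planned identity of Magoh and Magohb was not computed. The motifs were chosen after the data were seen.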

Additional observations from a re-analysis of the deposited data

How the results depend on the processing

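The number of genes called across the table (3 higher and 22 lower in PD) was 0 and 0 with protein-coding genes only and 0 and 0 with voom on recovered reads, which tested 6472 genes. With each library left out it ran from 0 to 27 higher and from 0 to 20 lower; it was 0 and 0 without either DMSO library, 13 and 10 without PD replicate 1 and 27 and 20 without PD replicate 2. In the other settings (pseudocounts, filters, quantile normalization, rescaling, no variance trend) it was 2 to 3 higher and 19 to 25 lower. No gene of either further list passed in any setting that kept all 4 libraries. With protein-coding genes only and with voom, 0 genes passed in the whole table, so the result for the lists was fixed there. Voom tested only 17 of the 24 other EJC and NMD genes and 9 of the 12 transcripts listed as NMD targets. The setting with protein-coding genes only kept 7 of these 12. The median of the 9 genes stayed between -0.33 and -0.22, and that of all genes between -0.05 and 0.04. The signs of Magoh, Magohb, Rbm8a, Casc3, Upf1 and Upf3b held in every setting that kept them, and those of Upf2, Smg1 and Smg5 turned when 1 library was left out. The replicate block gave 2 higher and 17 lower and changed no call of a listed gene. Replicate differences of equal number correlated between the groups at r = 0.0992 across all genes tested and 0.203 across protein-coding genes. With only 2 pairs this does not settle whether the numbers pair the libraries, and they were not treated as pairs. Depth limits Magohb, with 6 and 2 reads in PD, and no reads were recovered for Upf1 and Casc3.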
